A study of Homo sapiens with 2 samples.

Results

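The mRNAs of histones and of high-mobility-group (HMG) proteins were examined among the RNA sites bound by YB-1, a cold-shock domain protein that packages mRNA in the cytoplasm. Members were the protein-coding genes of GENCODE 44 whose symbols name a histone of the H1, H2A, H2B, H3 or H4 families, a macroH2A, or a numbered HMGA, HMGB or HMGN protein, without read-through genes. The rule gave 107 genes of 19396 protein-coding genes. Of these, 71 were replication-dependent histone genes, 23 were taken as polyadenylated histone genes, 12 were HMG genes and H2AX formed a class of its own. The data were clusters of crosslinked reads from YB-1 PAR-CLIP in wild-type HEK293T, a human embryonic kidney line, with 2 replicates called Rep.A and Rep.B, no other condition and no control library. Both cultures were given 100 µM of 4-thiouridine for 16 h and then 0.15 J/cm2 of UV light at 365 nm, so that crosslinked T bases are read as C. RNase T1, which cuts RNA after G, shortened the bound RNA in the lysate before an antibody against YB-1 recovered it. The enzyme was added again to the washed resin afterwards. The mapped reads of Rep.B exceeded those of Rep.A by a ratio of 2.63, and cluster coverage was not scaled for this difference. The tables list called clusters and no expression levels. A gene without a cluster is therefore not shown to be unbound, and the cell line could not be checked against marker genes.

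Replication-dependent histone genes supply the bulk of the core histones H2A, H2B, H3 and H4 and the linker histone H1 during S phase. Their genes lie in clusters, exist in many nearly identical copies and lack introns. Their mRNAs carry no poly(A) tail and end in a conserved stem-loop that is bound by the stem-loop binding protein SLBP. Replacement variants such as H3.3 are made throughout the cell cycle from ordinary spliced and polyadenylated mRNAs, and so are the HMG proteins, which bind DNA or nucleosomes and change chromatin structure.

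The sequences below are the cluster sequences on which the results turn, each on the strand of the RNA and read from the cluster tables for hg38. Capitals mark the tetramers CATC and CACC, which were searched on the RNA strand only and may overlap each other. The first is the H2A coding site of H2AC18 at chr1:149842444-149842465 on the minus strand, shared letter for letter by H2AC19 and H2AC20, and the next is the shorter cluster of H2AC12 at chr6:27147374-27147386 on the plus strand.
H2AC18: CATCATCcctcgtCACCtccag
H2AC12: tCACCtccaactg

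Clusters in the coding sequences of H2B genes had the following sequences. That of H2BC4 (chr6:26123731-26123759, minus strand) occurred once in hg38, that of H2BC3 (chr6:26043431-26043452, minus strand) occurred 7 times, and that of H2BC26 (chr1:228458335-228458356, plus strand) occurred 2 times. The remaining sequences came from the site closest to the stop codon, in H2BC5 (chr6:26158402-26158427, plus strand), H2BC13 (chr6:27807629-27807657, minus strand) and H2BC21 (chr1:149886363-149886380, minus strand).
H2BC4: tcCATCccgacactggCATCtcttccaag
H2BC3: aCATCttcgagcgCATCgcggg
H2BC26: aCATCttcgagcgCATCgccag
H2BC5: cttcccgcctggcgcattacaacaag
H2BC13: tacaacaagcgctcgacCATCACCtccag
H2BC21: ctcCACCATCaCATCccg

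Outside coding sequences, clusters were shown for the ends of H2B mRNAs (H2BC5, chr6:26158562-26158587, plus strand, and H2BC18, chr1:149811900-149811920, minus strand), for H2AX (chr11:119094262-119094283, minus strand), for both H3.3 genes (the first 30 bases of the clusters in H3-3A from chr1:226071883, plus strand, and in H3-3B, whose cluster at chr17:75777782-75777815 lies on the minus strand), for HMGN1 (chr21:39342827-39342848 and chr21:39342326-39342348, minus strand) and for HMGA1 (chr6:34240740-34240762, plus strand). The coding cluster of HMGB1 (chr13:30463256-30463277, minus strand) is given with them.
H2BC5 end: aagCATCtttaCACCtaatcccaaag
H2BC18 end: atcaacCACCtaaccccaaag
H2AX: ctccctcCATCttcattcatag
H3-3A: attcCATCcattcactatacttttctaact
H3-3B: tattcaCACCagCATCATCttaactaacat
HMGN1: gtgtcagcttaacattccacag
HMGN1 end: atcctcaaccaataaaatctcag
HMGA1: cccagcCATCactcttcCACCtg
HMGB1: aaaacctatatccctcccaaag

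Exons of the 107 genes held 19 of the 1382 clusters of Rep.A and 32 of the 2011 clusters of Rep.B. In all, 25 members had a cluster in either replicate, while 4.4% of all protein-coding genes did. A region was called reproducible when same-strand clusters of both replicates overlapped by 1 base or more. There were 17 such regions in 16 members, 14 histone genes and 2 HMG genes, against a background of 2.81% of all protein-coding genes with a region. Of the genes with a cluster in either replicate, 63.9% had a region over all protein-coding genes, and 16 of the 25 members did. Taken by replicate, 17 members had a cluster in Rep.A and 24 in Rep.B, beside 3.23% and 4.01% of all protein-coding genes. No cluster lay antisense to a member exon (0 in both tables) and none lay in a member intron alone (0). The share of genes with a cluster depends on how strongly each gene is expressed, which the tables do not hold, so no enrichment was tested.

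Within the histones, clusters were unevenly spread over families. Of the replication-dependent genes, 4 of 17 H2A genes and 13 of 19 H2B genes had a cluster in either replicate. None of the 6 H1 genes, 14 H3 genes and 15 H4 genes had one in either table. Among polyadenylated histones, 3 of 4 H3 genes had a cluster, and the 4 H1, 9 H2A, 4 H2B and 2 macroH2A genes had none. Of those H3 genes, H3-7 was placed here by its symbol, although its reference transcript has a stem-loop. The clusters of H3-7 had sequences shared with H2B genes, and its H3 coding sequence had none. The HMG genes with a cluster were 1 of 2 HMGA genes, 2 of 5 HMGB genes and 1 of 5 HMGN genes. The coding sequences of the replication-dependent families differed in the tetramers they offered, with a median of 5 CATC and 3 CACC per H2A gene, 5 and 5 per H2B gene, 3 and 3.5 per H3 gene, 2 and 3 per H4 gene, and 1 and 3 per H1 gene. The part that tetramer content, expression or copy number has in the difference between families was not tested.

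**Figure D1:**
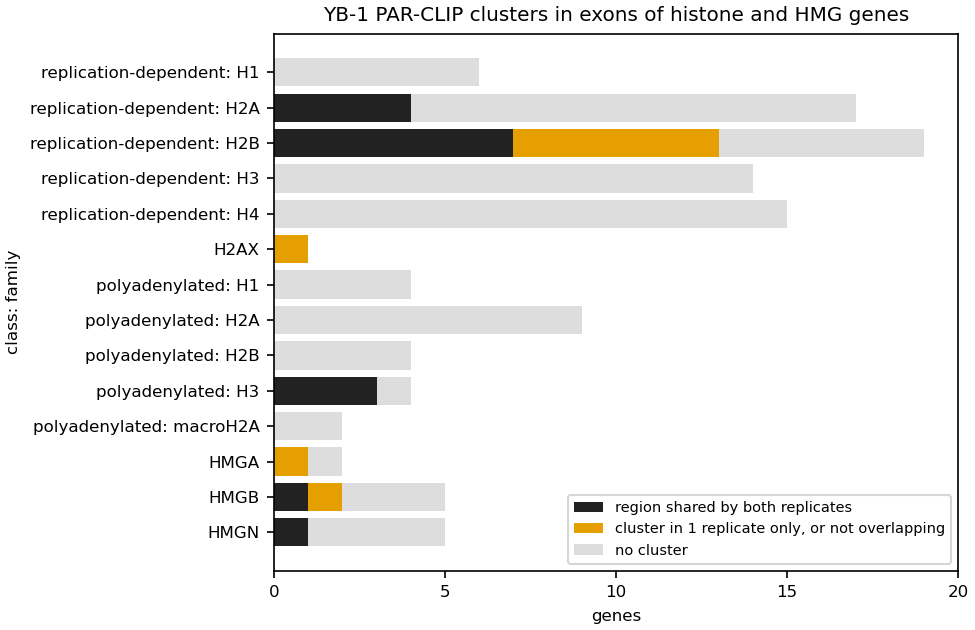
Number of genes (x axis) in each class and family (y axis), split into genes with a region shared by both replicates, genes with a cluster in 1 replicate only or without overlap, and genes without a cluster. Of the replication-dependent families, H2A (4 of 17 genes) and H2B (13 of 19 genes) hold clusters, and the bars of H1, H3 and H4 are empty of them.

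Member clusters had a median coverage close to that of all exonic clusters. Mean coverage is the average number of reads over each base of a cluster. The 19 member clusters of Rep.A had a median of 12.9 reads per base (3.21 to 30.2), beside a median of 13.8 (quartiles 8.68 and 19) for the 778 clusters of Rep.A in exons of protein-coding genes. In Rep.B the 32 member clusters had a median of 37 (5.79 to 97.6), beside 33 (quartiles 19.7 and 49.9) for 994 clusters. The log2 difference in coverage, Rep.B minus Rep.A, had a median of 1.22 over the 17 regions (0.23 to 2.39), and 1.40 over all 668 exonic regions (quartiles 1.07 and 1.71). Coverage was higher in Rep.B in each of the 17 regions, and the log2 ratio of the mapped reads was also 1.40.

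**Figure D2:**
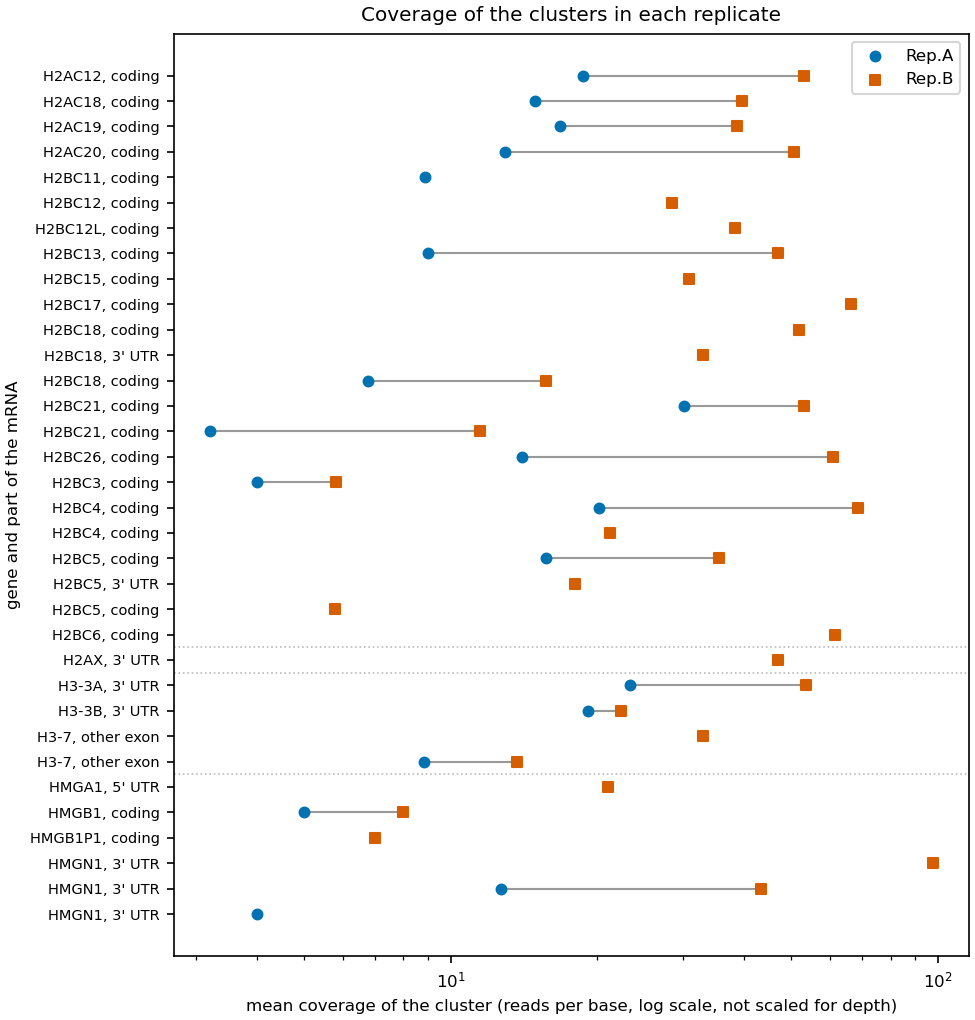
Mean coverage in reads per base (x axis, log scale) of each cluster in member exons (y axis, gene and part of the mRNA), with Rep.A as circles, Rep.B as squares and a line joining overlapping clusters. Dotted lines part replication-dependent genes, H2AX, polyadenylated histone genes and HMG genes. Each joined pair has its square to the right, and the highest value is 97.6 in HMGN1 in Rep.B.

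Of the 17 regions, 13 lay in coding sequence (76.5%, Wilson 95% interval 52.7 to 90.4), beside 60.6% of all exonic regions. Of the 3 member regions with a sequence that occurs once in hg38, 1 lay in coding sequence (33.3%). A further 3 of the 17 lay in 3′ UTRs of the MANE Select transcripts, the reference transcripts of the genes (17.6%, interval 6.2 to 41.0), beside 35.6%. On the transcript with the longest coding sequence 1 of 17 did, because the regions of H3-3B and HMGN1 then fell in other exons. Intervals cover counting error only, since duplicate reads from PCR cannot be recognised in the tables. All 12 regions of replication-dependent genes were in coding sequence (interval 75.8 to 100.0), whereas 1 of the 5 regions of the other members was (interval 3.6 to 62.4). In the replication-dependent genes with a region, 3′ UTRs have 47 to 88 bases, except for 1801 in H2BC21. Those of the others have 540 (H3-3A), 797 (HMGN1), 2161 (H3-3B) and 4653 (HMGB1), but 46 in H3-7. The part that these lengths have in the contrast was not tested. CATC was found in 13 of the 17 regions (76.5%, interval 52.7 to 90.4) and in 45.1% of all exonic regions. With clusters at or above the median relative log odds, a score the caller gives to transitions, the share of member regions with CATC was 50.0%. CACC was found in 7 of 17 (41.2%, interval 21.6 to 64.0) and in 41.9% of all exonic regions. One tetramer or the other was found in 14 of 17 (82.4%, interval 59.0 to 93.8) and in 69.9% of all exonic regions. The 3 member regions with neither were those of H2BC5, HMGB1 and HMGN1. Because the H2A and H2B regions repeat a few homologous sequences, these regions are not independent samples of sequence.

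The H2A clusters fell on a single site. H2A pairs with H2B to form the dimers that close the nucleosome core. In H2AC12, H2AC18, H2AC19 and H2AC20 the clusters lay within codons 78 to 86, counted from the start codon, in both replicates. That of H2AC12 covered codons 82 to 86, and those of the other genes began at codon 78 or 79. H2AC12 had a coverage of 18.7 in Rep.A and 53.2 in Rep.B, the highest of the 4 genes in each replicate. Its sequence was too short for the copy search and the other 3 genes share a sequence, so this order does not rank the genes. H2AC18 had 14.9 and 39.6, H2AC19 had 16.8 and 38.8, and H2AC20 had 12.9 and 50.8, in Rep.A and Rep.B respectively. The 3 genes with the same sequence thus differed among themselves by less than the unscaled replicates of each gene did, and the lowest of them in Rep.A was the highest in Rep.B. Because reads matching several copies were placed at random, this likeness does not show how each gene was bound. The other 13 replication-dependent H2A genes held none of the cluster sequences and differed from the nearest by 1 to 4 bases. Genes at a distance of 1 base were H2AC11, H2AC13 and H2AC14.

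H2B genes carried clusters at 3 sites, again at homologous positions. The site at codons 49 to 58 was found in H2BC4, with a coverage of 20.2 in Rep.A and 68.6 in Rep.B. H2BC12L had a cluster there of 38.3 in Rep.B alone. Its sequence had 4 copies in hg38, and a copy outside the members had a cluster of 3.9 in Rep.A. The H2BC4 cluster had identical ends in both replicates, T-to-C transitions at 2 positions in each, and a sequence that occurred once in hg38. Of the 12 regions in replication-dependent genes, no other searched for copies had a sequence of its own. H2BC12 held the 20-base sequence of the H2BC12L cluster exactly and had no cluster at that site.

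The site at codons 64 to 77 had clusters in 5 H2B genes. H2BC6, H2BC13 and H2BC15 held a cluster sequence of this site exactly and had no cluster there. H2BC26 had a coverage of 14 in Rep.A and 60.8 in Rep.B. H2BC18 had 6.75 and 15.7, H2BC21 had 3.21 and 11.5, and H2BC3 had 4 and 5.82. H2BC5 had 5.79 in Rep.B alone. H2BC26 was the highest of the 5 genes in both replicates, and H2BC3, H2BC18 and H2BC21 were below the lower quartile of all exonic clusters in both. The sequence printed for H2BC26 had 2 copies in hg38 and that for H2BC3 had 7. Reads matching several copies were placed at random, so these values do not rank the genes by binding. Most clusters of this site share the stretch printed above for H2BC3, and that of H2BC26 ends in different bases.

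The site at codons 78 to 93 was the one with the most genes, 10 in all. Both replicates had overlapping clusters in H2BC5 (15.7 in Rep.A and 35.6 in Rep.B), H2BC13 (8.97 and 47) and H2BC21 (30.2 and 53.1). H2BC11 had a cluster of 8.85 in Rep.A alone. Clusters in Rep.B alone were those of H2BC17 (66.4), H2BC6 (61.4), H2BC18 (51.9), H2BC15 (30.8), H2BC12 (28.5) and H2BC4 (21.2). Rep.B, the deeper library, thus held 9 of the 10 genes at this site and Rep.A held 4. H2BC17 and H2BC6 were the 2 members whose clusters did not end in G. All 19 member clusters of Rep.A and 30 of the 32 of Rep.B did, and so did 95.2% of exonic clusters in Rep.A and 94.8% in Rep.B. H2BC7 and H2BC14 held a cluster sequence of this site exactly and had no cluster anywhere, and H2BC1, H2BC8, H2BC9 and H2BC10 held none of the sequences of any of the 3 sites. These are the 6 H2B genes of this class without a cluster. The 4 H2A and H2B sites were drawn by joining overlapping positions of the 33 coding clusters of replication-dependent genes. All 33 therefore lie in them by construction.

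**Figure D3:**
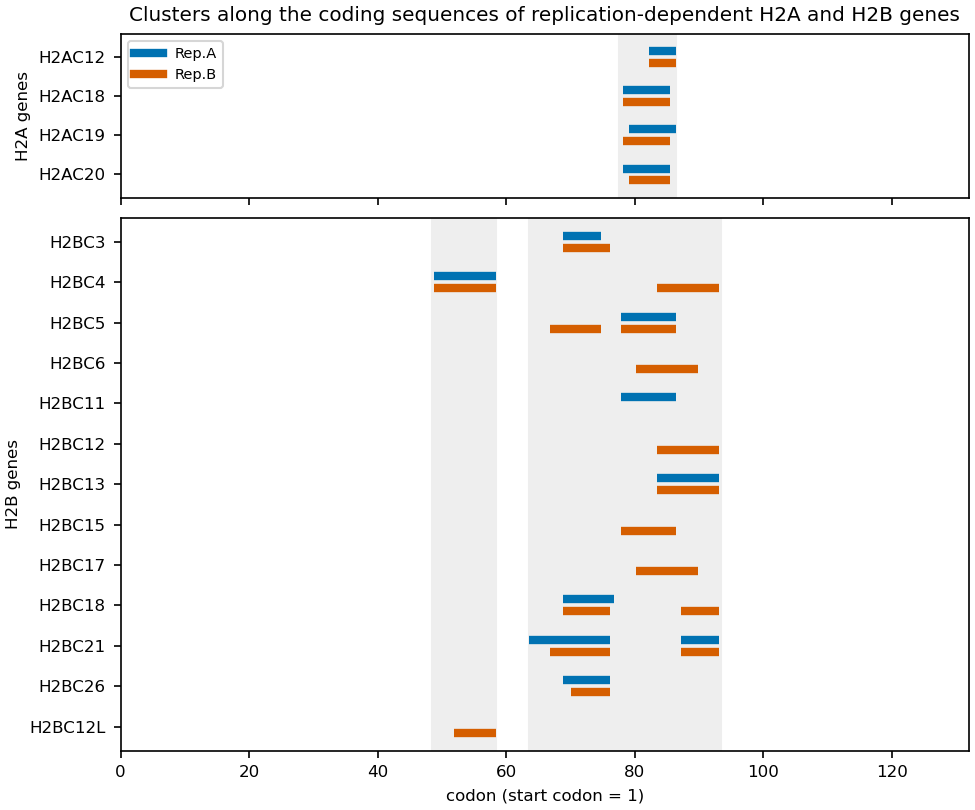
Clusters along the coding sequences (x axis, codon) of the replication-dependent H2A and H2B genes that had one (y axis), with Rep.A above Rep.B for each gene. Grey bands mark codons 78 to 86 of H2A and codons 49 to 58, 64 to 77 and 78 to 93 of H2B (the last 2 adjoin). The bands were drawn from the clusters themselves, so that none can lie outside them.

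Histone genes share much of their sequence, and the aligner placed a read that matched several positions at one of them at random. Of the 17 regions, 3 had a sequence that occurred once in hg38 (17.6%, interval 6.2 to 41.0), namely those of H2BC4, H3-3B and HMGN1, whereas 72.3% of all exonic regions did. The cluster of H2AC12, at 13 bases, was too short for the search, which took 18 to 100 bases, and was not counted as single. Among the others a sequence had up to 13 exact copies. A coverage value printed for a member of such a set belongs to 1 copy, and the reads cannot be assigned to a gene from these tables.

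Exact copies did not all have the same coverage. The H2B sequence printed for H2BC3 had 7 copies, of which 6 overlapped a cluster in Rep.A and 7 in Rep.B. Clusters with exactly the ends of a copy lay at 2 copies in Rep.A and 4 in Rep.B. Coverage over these copies went from 3.21 to 31.8 (Rep.A) and from 5.82 to 92.6 (Rep.B). The highest in both was at H2BC19P, an H2B pseudogene next to H2AC18, with 31.8 and 92.6. H2BP1, a further pseudogene copy, had 6.54 and 21.5. The sequence printed for H2BC26 was shared with H2BC27P, where coverage was 12 in Rep.A and 41.9 in Rep.B. By contrast, the 3 copies of the H2A sequence spanned 12.9 to 16.8 (Rep.A) and 38.8 to 50.8 (Rep.B). The 26-base sequence of H2BC5 had 9 copies, 3 of them overlapped by a cluster in Rep.A (8.85 to 15.7) and 7 in Rep.B (16.3 to 66.4). Clusters with exactly the ends of a copy lay at 3 copies in each replicate. The value of 66.4 belongs to a shifted cluster in H2BC17. The copies differ in their flanking bases, and the part of reads that reach into those flanks was not tested.

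**Figure D4:**
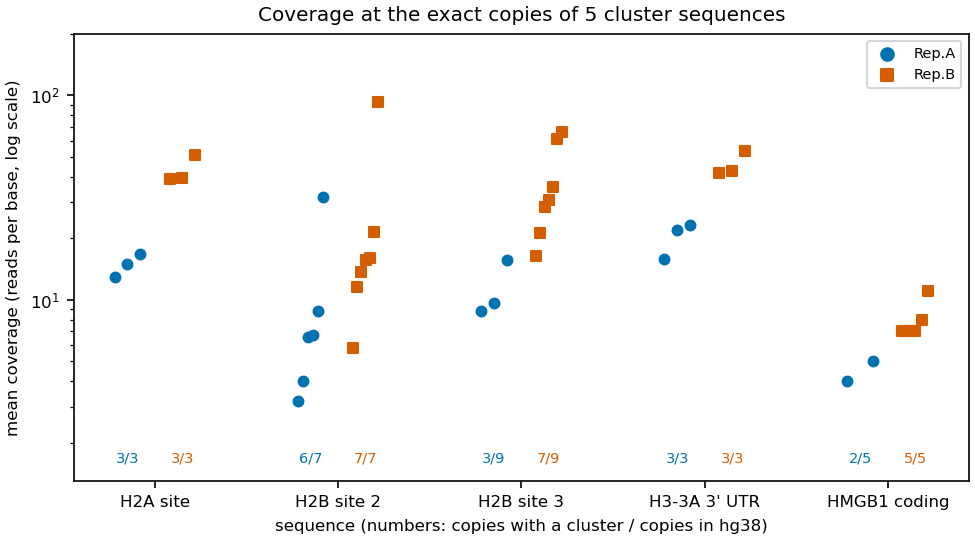
Mean coverage in reads per base (y axis, log scale) of clusters overlapping the exact hg38 copies of 5 cluster sequences (x axis), 1 point per copy and replicate, with the number of copies under a cluster and of all copies printed below. The copies of the H2B sequence at codons 64 to 77 (H2B site 2) spread most, from 5.82 to 92.6 in Rep.B, and those of the H2A and H3-3A sequences lie close together.

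The ends of replication-dependent mRNAs were compared with the stem-loop, which was found by its consensus in 70 of the 71 genes and not in H2BC12L. Clusters in 3′ UTRs of this class were seen in H2BC5, with a coverage of 18, and in H2BC18, with 33, both in Rep.B alone. In each, the last base of the cluster was the first base of the stem-loop (a difference of 0 bases). That base is a G, and no other G lies between CACC and it. RNase T1 cuts after G, and 94.8% of exonic clusters of Rep.B end in G. Whether these ends follow from that cutting or from the stem-loop was not tested. The H2BC5 cluster began 11 bases past the stop codon and occurred once in hg38, and that of H2BC18 began 22 bases past it and had 3 copies. A copy of the latter lay in an exon of H3-7, with a coverage of 33 in Rep.B alone, and also ended on the first base of a stem-loop. No replicate pair supports these 3 clusters, since Rep.A had none there.

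H2AX encodes the H2A variant that is phosphorylated at DNA breaks, and its gene gives both a short mRNA with the stem-loop end and a longer polyadenylated one. Its single cluster was seen in Rep.B, with a coverage of 47 and 1 transition position among 8 T bases. It began 679 bases past the stop codon and ended 651 bases after the start of the stem-loop, within the sequence that the long mRNA alone contains. The sequence occurred once in hg38.

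The clusters of the polyadenylated histones lay in H3 genes. H3-3A and H3-3B encode the same replacement histone, H3.3, from different mRNAs. H3-3A had a cluster with identical ends in both replicates, 403 bases past the stop codon, with a coverage of 23.3 in Rep.A and 53.6 in Rep.B. H3-3B had one 779 bases past the stop codon, also with identical ends, with a coverage of 19.1 in Rep.A and 22.4 in Rep.B. Both were above the upper quartile of exonic clusters in Rep.A, and in Rep.B that of H3-3A was above the upper quartile while that of H3-3B was between the quartiles. The log2 difference of H3-3B, 0.23, was the smallest of the 17 regions. The H3-3B sequence occurred once in hg38, and the H3-3A sequence occurred 3 times, with coverage from 15.8 to 23.3 in Rep.A and from 41.5 to 53.6 in Rep.B over the copies.

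H3-7 was placed with the polyadenylated genes by its symbol, although its MANE Select transcript has a stem-loop 27 bases past the stop codon. Its region had a coverage of 8.82 in Rep.A and 13.7 in Rep.B. This region lay in an exon of another H3-7 transcript that overlaps an H2B pseudogene, and its sequence was that of the H2B site at codons 64 to 77. The H3 coding sequence of H3-7 had no cluster. H2AZ1 and H2AZ2, which encode the variant H2A.Z, had none either, but a cluster of 28 in Rep.B at the processed pseudogene H2AZP3 matched codons 112 to 118 of H2AZ1 exactly. That sequence had 3 copies in hg38.

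Of the HMG genes, HMGN1, a nucleosome-binding protein, had the highest coverage. Its reproducible region began 263 bases past the stop codon, with a coverage of 12.7 in Rep.A and 43.4 in Rep.B, identical ends and a sequence that occurred once in hg38. A second cluster, seen in Rep.B alone with a coverage of 97.6, ended 11 bases before the end of the mRNA and held AATAAA, the polyadenylation signal. This was the highest coverage of the 32 member clusters of Rep.B, although its relative log odds were 0.00 beside a median of 0.20 for exonic clusters of Rep.B. AATAAA, searched on the RNA strand, was present in 1.31% of exonic clusters of Rep.B and 0.771% of those of Rep.A. A further cluster of HMGN1, 128 bases past the stop codon, had a coverage of 4 in Rep.A alone and 11 copies in hg38.

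HMGB1, which bends DNA and acts as an alarm signal outside cells, had a cluster in codons 76 to 83. Its coverage was 5 in Rep.A and 8 in Rep.B. The share of T bases with a transition was 0.25 and 0.75, respectively. The same bases lay under a cluster of HMGB1P1, listed as protein-coding in GENCODE 44 despite its pseudogene name, with a coverage of 7 in Rep.B alone. The sequence had 5 copies, of which 2 had a cluster in Rep.A (4 to 5) and 5 in Rep.B (7 to 11). Reads matching several copies were placed at random, so these values cannot tell HMGB1 from its copies. HMGA1, an AT-hook protein, had a cluster in its 5′ UTR with a coverage of 21 in Rep.B alone. That sequence had 2 copies, and the other, in the processed pseudogene HMGA1P6, had 6 in Rep.A and 25 in Rep.B. HMGB2, HMGN2 and the other 6 HMG genes had no cluster.

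**Figure D5:**
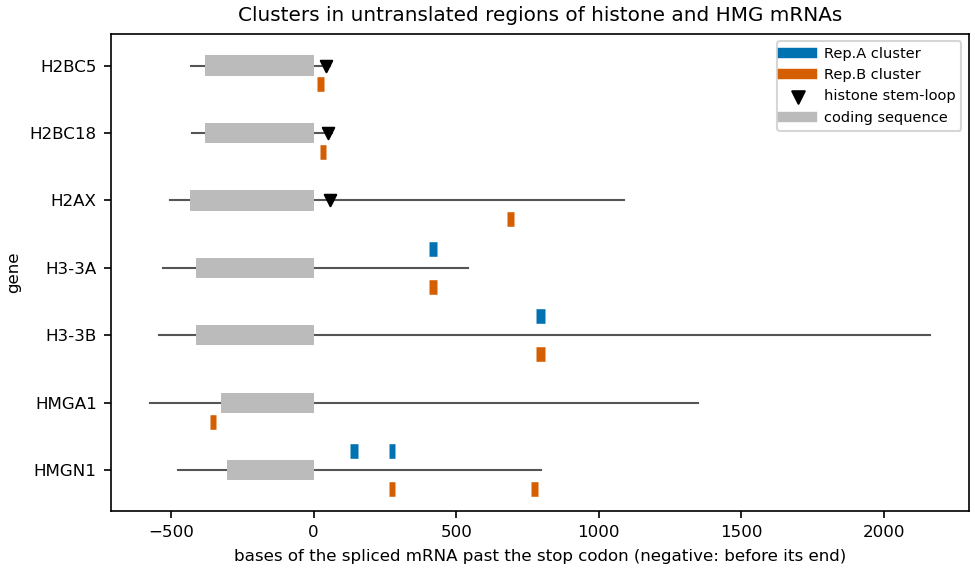
Spliced mRNAs of the members with clusters in untranslated regions (y axis), drawn to scale in bases from the end of the stop codon (x axis), with coding sequence as grey boxes, Rep.A clusters above and Rep.B clusters below each line, and triangles at the histone stem-loop. Clusters of H2BC5 and H2BC18 meet the stem-loop, that of H2AX lies 651 bases beyond its start, and HMGN1 has a Rep.B cluster 11 bases from its end.

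The transitions of member clusters were set beside those of all exonic clusters. The crosslinking efficiency, the share of T bases of a cluster with a called transition, had a median of 0.25 in Rep.A (0.08 to 0.67) and 0.25 in Rep.B (0.09 to 0.75), beside 0.20 for exonic clusters in each replicate. More than 1 transition position was found in 3 of 19 member clusters of Rep.A (15.8%, interval 5.5 to 37.6) and 10 of 32 of Rep.B (31.2%, interval 18 to 48.6), beside 15.4% and 17% of exonic clusters. Several member clusters of Rep.B with more than 1 transition position lie at 1 homologous H2B site or repeat the HMGB1 sequence. Member clusters are therefore not independent, and no difference from all exonic clusters is read from the intervals. Identical ends in both replicates were found for 10 of the 17 regions (58.8%, interval 36.0 to 78.4), beside 78.9% of all exonic regions.

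Genes that act on these mRNAs or proteins were described from lists. Over all protein-coding genes, 4.4% had a cluster in either replicate and 2.81% had a reproducible region. Of 12 factors that process histone mRNA, 1 had a cluster, LSM11, a subunit of the U7 particle that cuts the histone mRNA end, with a coverage of 19 in its 3′ UTR in Rep.B alone. SLBP was among those without one. Of 28 histone chaperones and their partners, 5 had a cluster in either replicate and 4 had a reproducible region. NCL, nucleolin, had a coding region with a coverage of 25.8 in Rep.A and 59 in Rep.B. Another coding cluster of NCL, of 5 in Rep.B alone, had a sequence with 2 copies in hg38. SRCAP, the catalytic subunit of the complex that deposits H2A.Z, had a coding region with 24 and 36. ANP32B and PTMA, both acidic histone-binding proteins, had 3′ UTR regions with 13 and 24, and with 6 and 16, in Rep.A and Rep.B respectively. RBBP4, a chaperone of H3 and H4, had coding clusters of 38 and 78, both in Rep.B alone. The sequence of each had 3 copies in hg38, so this coverage cannot be assigned to RBBP4 alone. The clusters of these genes were thus spread over coding sequences and 3′ UTRs.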

How the data were processed

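YB-1 PAR-CLIP clusters of 2 wild-type HEK293T replicates were used. The authors trimmed reads with cutadapt 2.10, aligned them without splicing to hg38 with Bowtie 1.0.0 and called clusters per replicate with wavClusteR (coverage of at least 3, width of at least 10). Each cluster's coverage was deposited as an unscaled signal, the average of reads over its bases. The deposited tables also give the count of T positions with transitions and the count of T bases, the crosslinking efficiency as a fraction, and log odds as a score whose log base is not given in the sources used here. The sequence column is plus-strand text, so minus-strand sequences were turned. The relative depth was taken from the mapped reads the study lists.

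Here clusters were matched to exons of GENCODE 44 on the same strand. Positions in mRNAs refer to MANE Select transcripts. Sequences of 18 to 100 bases were searched for exact copies on both strands of the hg38 reference chromosomes. No test was run, since there was 1 condition; shares have Wilson 95% intervals. The members and gene lists were chosen with earlier results of these data known. All members and listed genes with an exonic cluster were named, and, among pseudogenes with an exact member sequence, the 5 with the highest mean coverage over both replicates, an absent cluster counted as 0. H2AC11, H2AC13 and H2AC14, HMGB2 and HMGN2, SLBP, H2AZ2 and the H2B genes without a cluster were named after their values were seen. The overlap and copy searches were tested on simulated data. The tools were matplotlib 3.10.9, scipy 1.17.1, pandas 2.3.3 and numpy 2.4.6 under Python 3.11.15.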

Additional observations from a re-analysis of the deposited data

How the results depend on the processing

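Of 45 values recomputed under alternatives, 13 were counted as moved and 32 were not. Some of the 32 still shifted, such as members with a region from 16 to 24 without replicate A. With only sequences that occur once in hg38, which leaves out the multi-copy histone sites by construction, members with a region went from 16 to 3, histone members from 14 to 2, HMG members from 2 to 1, regions from 17 to 3 and the coding share from 76.5% to 33.3%. With clusters at or above the median relative log odds, members with a region fell to 8, histone members to 6, regions to 8 and the share of regions with CATC from 76.5% to 50.0%. With a coverage of at least 10, members with a region numbered 11, histone members 10 and regions 11. HMG members numbered 1, since HMGB1 was lost. Using 1 replicate alone, without replicate A or without replicate B, gave 19 to 32 clusters in place of 17 regions, 2 to 4 HMG members, 15 to 20 histone members and 17 to 24 members. An overlap of at least 50% of both clusters and the use of whole gene spans changed none of the counts for which they were run, and the coding share was 76.5% with either choice of transcript, the longest coding sequence or MANE Select, while the regions in 3′ UTRs numbered 1 with the former and 3 with the latter. No paired analysis was possible because there was 1 group. Low coverage limits Rep.A most, where clusters of 3 to 5 reads per base are near the calling minimum of 3.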
